A study of Mus musculus with 6 samples.

Results

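Serine synthesis, mitochondrial folate metabolism and the ATF4 response were described here through 10 genes, among the 54532 of the count table, in mouse bone marrow mesenchymal stromal cells (BMSCs) undergoing osteogenic mineralization with or without low-dose nickel. Aldh1l2 was selected on its p, the smallest of all genes in this same comparison, so its values are given as a description with no test. The other 9 genes, Phgdh, Psat1, Psph, Shmt2, Mthfd2, Atf4, Asns, Chac1 and Trib3, were chosen as known partners of the pathway. All 10 passed the filter on low counts, which kept 14624 genes. By rank of p Aldh1l2 stood at 1, and the gene just outside the choice, Rps18-ps3, at 2, with log2 fold changes of 1.53 (standard error 0.21) and 1.39 (standard error 0.19).

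Wild type mBMSCs, primary cells labelled as mesenchymal stem cells from bone, were held for 7 days in osteogenic medium, which held β-glycerophosphate at 10 mM, ascorbic acid at 50 μg/mL and dexamethasone. The 3 Ni cultures also received 0.1 μM nickel ion, as NiCl2, and the 3 control cultures did not. The dexamethasone concentration is 100 nM in the labels of the samples and lower in the methods of the paper. The replicates are called independent biological replicates, but the labels name no animal or culture behind a number, so the p-values measure the spread between these libraries. RNA was sequenced in bulk, so more cells of a type and more RNA per cell cannot be told apart.

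The libraries held from 16101033 to 18642504 counts. Control replicate 3 stood apart, at a mean distance (1 minus Pearson's r of log2 CPM over the genes tested) of 0.0131 to the Ni libraries. To the other controls it was 0.0220, and values without it are therefore given beside the main ones. The library was singled out by its likeness to the Ni libraries, so leaving it out can widen the differences. Values without it are thus a description, not independent support. At an adjusted p under 0.05 edgeR called 2283 genes without it, 13 without Ni replicate 2 and 0 without any other library. The cultures held more than stromal cells. All 14 osteoblast markers and all 13 stromal markers were detected, and so were all 20 macrophage markers. CPM are counts scaled to a common library size, with TMM normalization for single genes and by library totals alone for sums of markers. The macrophage markers summed to between 32105 and 36976 CPM in controls and between 31469 and 31921 CPM in Ni libraries. No gene of the 14624 passed an adjusted p of 0.05 (0.00%, quasi-likelihood test of edgeR, Benjamini-Hochberg adjusted), whereas 1963 (13.4%) had an unadjusted p under 0.05 and DESeq2 called 257. In what follows, "higher" and "lower" therefore describe the values, and a p is called unadjusted wherever it is.

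Serine is made from a glycolytic intermediate by 3 enzymes in turn: PHGDH, which oxidizes 3-phosphoglycerate and commits carbon to the pathway, PSAT1, which adds the amino group, and PSPH, which removes the phosphate. In mitochondria SHMT2 then splits serine into glycine and a carbon unit carried by folate, MTHFD2 oxidizes that unit, and ALDH1L2 oxidizes 10-formyltetrahydrofolate to carbon dioxide while making NADPH. ATF4 is a basic leucine zipper factor whose translation increases when eIF2 is phosphorylated during amino acid shortage or other stress, and which switches on many of these genes together with ASNS, CHAC1 and TRIB3. In osteoblasts ATF4 is known for its part in differentiation and in amino acid supply for collagen, a protein rich in glycine and proline.

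ATF4 binds, with C/EBP partners, to C/EBP-ATF response elements, so the promoters of the genes were searched for a core of such an element, TGATGNAA, on both strands. Of the 10 genes, 9 matched a RefSeq promoter window (GRCm38.p6, 250 bases before to 50 after the transcript start), all but Aldh1l2. A match lay in 3 of the 9, those of Chac1, Trib3 and Asns. Among all 27025 genes with a window, 4.51% held a match, and among 29 other known ATF4 targets with a window 37.9% did. The 3 stretches are shown because they carry the letters by which this gene group is usually recognised, with the match in capitals, 5′ to 3′ on the strand of the gene, where Chac1 and Trib3 hold the reverse complement, TTNCATCA.
Chac1: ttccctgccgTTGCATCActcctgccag
Trib3: tagctcaggtTTACATCAgccgggcggg
Asns: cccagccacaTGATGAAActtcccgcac
They lie at chr2:119351039-119351066 on the plus strand, chr2:152344029-152344056 on the minus strand and chr6:7693215-7693242 on the minus strand. Counting the first base of the RefSeq transcript behind each window as 1, the match began at position -193 in Chac1, 15 in Trib3 and -23 in Asns. These starts are not those of the gene records in the files, by which the match of Trib3 lies before the gene and that of Asns inside it. A match is a description of the letters, not of binding. The 3 genes did not move alike, with log2 fold changes of 0.67 for Chac1, 0.63 for Trib3 and 0.02 for Asns.

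Across the 10 genes the values ran from no detectable difference to nearly 3 times the control level. The log2 fold change (Ni minus control) was positive for all 9 partners, where it was for 7028 of the 14624 genes tested, and for Aldh1l2. It ran from 0.02 for Asns to 1.53 for Aldh1l2, the gene picked for its p. Asns and Shmt2 turned negative when certain single libraries were left out. The median was 0.23 over the 9 partners against -0.01 over all genes tested, and 0.25 with Aldh1l2 included. Of the 9 partners, 4 were higher at an unadjusted p under 0.05 (Phgdh, Trib3, Psat1 and Chac1) and none was lower, where 7.59% of all genes were higher and 5.83% lower. The 3 Ni libraries all lay above the 3 controls for Phgdh, Psat1 and Trib3 of the 9 partners, where 7.97% of all genes did. They did so for Aldh1l2 too, which was picked for its p and so is not set against that share. No partner passed an adjusted p of 0.05 in edgeR, and DESeq2 called 1, Phgdh, as higher, beside 1.49% of all genes. Without control replicate 3 the same count at an unadjusted p under 0.05 was 4 of 9, beside 15.2% of all genes, and 1 partner, again Phgdh, was higher at an adjusted p under 0.05 in edgeR and none was lower, beside 8.69% and 6.49% of all genes.

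**Figure D1:**
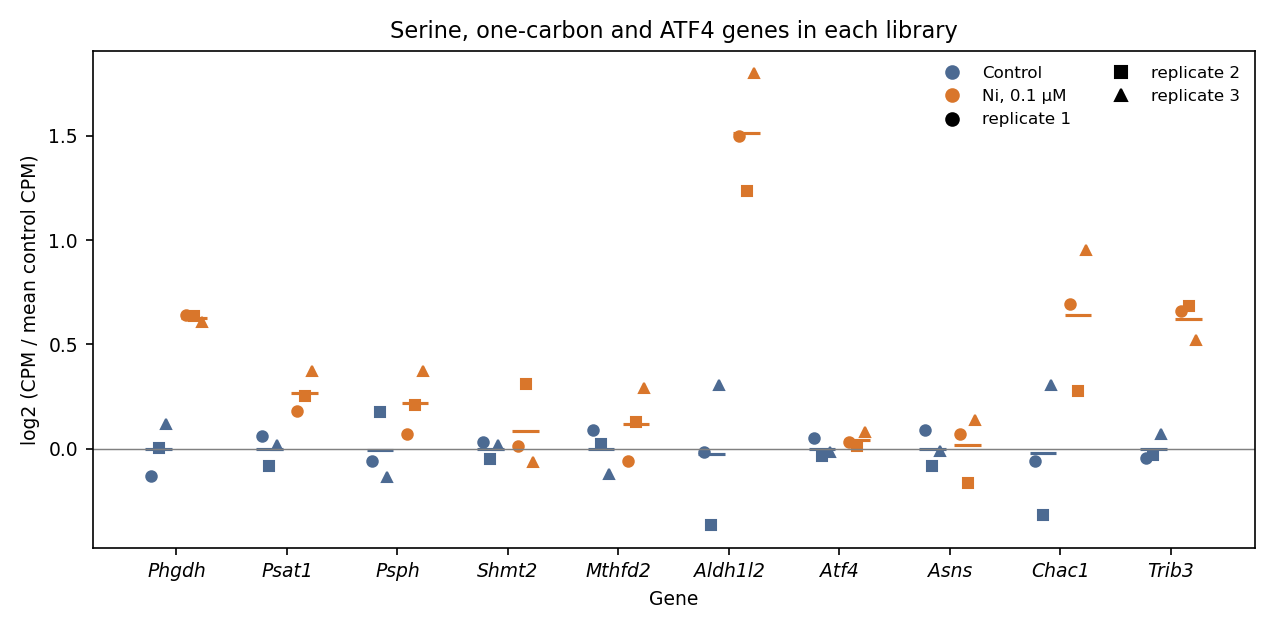
Expression of the 10 genes in each library as log2 of CPM over the mean control CPM (vertical axis), with controls in blue, Ni libraries in orange, a marker shape for each replicate number and a bar at the group mean. Ni libraries lie above every control for Phgdh, Psat1, Aldh1l2 and Trib3, and the groups overlap for the other 6.

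Phgdh (ENSMUSG00000053398, chromosome 3 of GRCm38 from 98313170 to 98339990, minus strand) encodes the first and committing enzyme of serine synthesis. In the order of replicates 1 to 3, which all values below follow, it had 296, 282 and 321 counts without nickel and 511, 480 and 491 with it. As CPM these were 16.2, 17.8 and 19.3 in controls and 27.7, 27.6 and 27.1 in Ni libraries. The Ni libraries lay close together, all above the highest control. The means were 17.7 ± 1.54 CPM (SD, n = 3) and 27.5 ± 0.328 CPM (SD, n = 3), a ratio of 1.55. The log2 fold change of 0.63 (standard error 0.11) had a 95% interval from 0.39 to 0.88, with an adjusted p of 0.205 in edgeR and 0.00438 in DESeq2. Without control replicate 3 it was 0.70 (standard error 0.12, edgeR adjusted p = 0.00206). An exact two-sided permutation test over the libraries gave p = 0.1, the smallest that 3 against 3 allows, and so it did for Psat1 and Trib3. Of the 50-base stretches of Phgdh transcripts, 47.8% also occur in transcripts of 23 other genes, among them Phgdh pseudogenes, none of which had more than 61 counts in a library. How reads in such stretches were assigned is not given in the sources used here, so the level of Phgdh is uncertain to that extent.

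Psat1 (ENSMUSG00000024640, chromosome 19 from 15904678 to 15947337, minus strand), which encodes the aminotransferase of the second step, had 35.6, 32.2 and 34.5 CPM in controls and 38.6, 40.6 and 44.1 CPM in Ni libraries. Every Ni library was above every control, but by a smaller step than in Phgdh. In log2 fold change the difference was 0.27 (standard error 0.10, 95% interval 0.04 to 0.50), with an unadjusted p of 0.0236 and an adjusted p of 0.334 in edgeR. Psph (ENSMUSG00000029446, chromosome 5 from 129765558 to 129787449, minus strand), which encodes the phosphatase of the last step, had 13.7, 16.1 and 13.0 CPM in controls and 15.0, 16.5 and 18.5 CPM in Ni libraries. Control replicate 2 lay above Ni replicate 1, so the groups overlapped. Its log2 fold change of 0.23 (standard error 0.14) had a 95% interval from -0.09 to 0.55 (edgeR adjusted p = 0.504). Of the exon bases of Psph, 10.4% are shared with Cct6a on the opposite strand, which had between 2013 and 2551 counts in a library and a log2 fold change of 0.04 (standard error 0.09). Along the 3 steps of the pathway the log2 fold change was thus 0.63, 0.27 and 0.23 at the first, second and last step. The intervals of the 3 genes overlapped, and differences between the steps were not tested.

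Among the mitochondrial folate enzymes the first 2 showed little difference. Shmt2 (ENSMUSG00000025403, chromosome 10 from 127517123 to 127522444, minus strand) had 63.9, 60.5 and 63.3 CPM in controls and 63.2, 77.6 and 59.8 CPM in Ni libraries. The highest value, in Ni replicate 2, and the lowest, in Ni replicate 3, were both from nickel cultures. The log2 fold change was 0.10 (standard error 0.11, 95% interval -0.16 to 0.35, edgeR adjusted p = 0.752), and without Ni replicate 2 it was -0.02. Of its exon bases 1.03% are shared with Ndufa4l2 on the opposite strand, a gene at 0.92 (standard error 0.15) on the log2 fold change scale. Mthfd2 (ENSMUSG00000005667, chromosome 6 from 83305691 to 83325908, minus strand) had 23.7, 22.6 and 20.5 CPM in controls and 21.4, 24.3 and 27.2 CPM in Ni libraries. Its groups overlapped, and the log2 fold change of 0.13 (standard error 0.12) had a 95% interval from -0.15 to 0.40 (edgeR adjusted p = 0.692).

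Aldh1l2 (ENSMUSG00000020256, chromosome 10 from 83487450 to 83534140, minus strand), which oxidizes the formyl group of mitochondrial 10-formyltetrahydrofolate to carbon dioxide, had 122, 83 and 139 counts in controls and 351, 276 and 425 in Ni libraries. These were 6.67, 5.23 and 8.34 CPM in controls and 19.1, 15.9 and 23.5 CPM in Ni libraries, so that the lowest Ni library lay well above the highest control, which was control replicate 3. The means were 6.74 ± 1.56 CPM (SD, n = 3) and 19.5 ± 3.81 CPM (SD, n = 3), a ratio of 2.89. Without control replicate 3 the log2 fold change was 1.71 (standard error 0.20). Of its exon bases, 14.1% are shared with D10Wsu102e on the opposite strand, a gene with between 570 and 724 counts in a library and a log2 fold change of -0.10 (standard error 0.11). Reads on either strand there cannot be told apart unless counting used the strand, which is not given in the sources used here.

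**Figure D2:**
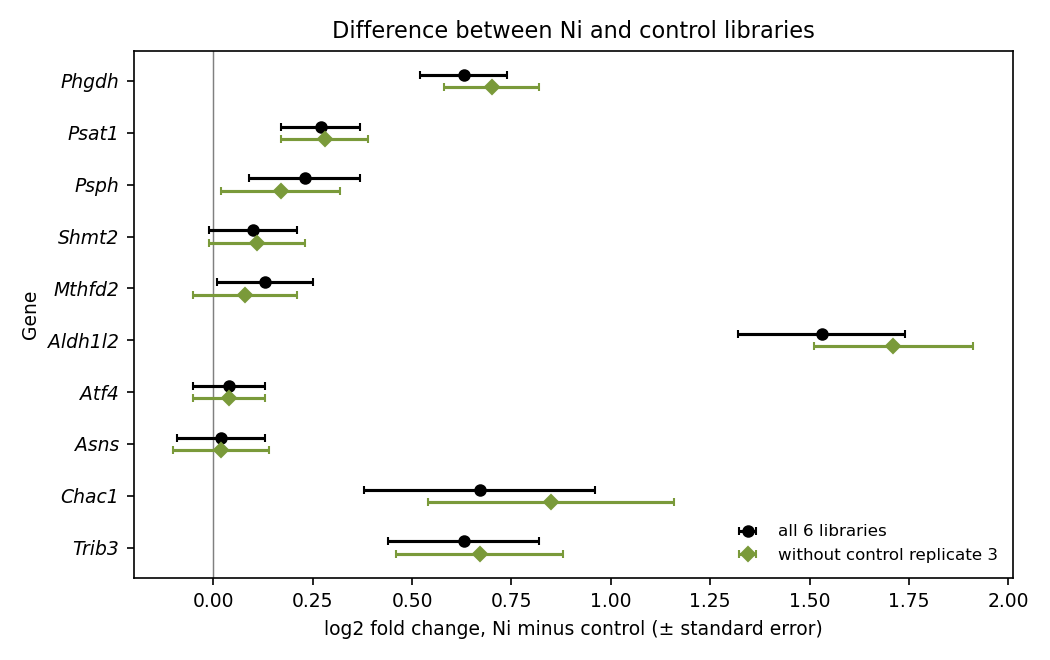
Log2 fold change between Ni and control libraries with its standard error (horizontal axis) for the 10 genes, from all 6 libraries (circles) and without control replicate 3 (diamonds). Aldh1l2 lies farthest to the right at 1.53 and 1.71, Phgdh, Chac1 and Trib3 lie between 0.63 and 0.85, and Atf4 and Asns lie near 0.

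Atf4 itself (ENSMUSG00000042406, chromosome 15 from 80255184 to 80257541, plus strand), the transcription factor, was the most abundant of the 10 and hardly differed. It had 155, 146 and 148 CPM in controls and 153, 151 and 158 CPM in Ni libraries. The log2 fold change of 0.04 (standard error 0.09) had a 95% interval from -0.15 to 0.24 (edgeR adjusted p = 0.878). ATF4 is controlled largely at translation, and its protein was not measured in these files, so whether ATF4 drives the other genes here cannot be read from them. Asns (ENSMUSG00000029752, chromosome 6 from 7675169 to 7693254, minus strand), which encodes asparagine synthetase, had 38.4, 34.0 and 35.8 CPM in controls and 37.9, 32.2 and 39.7 CPM in Ni libraries. The lowest and the highest of the 6 were Ni libraries, and the log2 fold change of 0.02 (standard error 0.11) had a 95% interval from -0.23 to 0.27 (edgeR adjusted p = 0.957).

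The other 2 genes of the ATF4 response had few counts and larger differences. Chac1 (ENSMUSG00000027313, chromosome 2 from 119351229 to 119354381, plus strand), which encodes an enzyme that breaks down glutathione, had 40, 29 and 47 counts in controls and 68, 48 and 80 in Ni libraries. The values were 2.19, 1.83 and 2.82 CPM in controls and 3.69, 2.76 and 4.42 CPM in Ni libraries, and Ni replicate 2 lay just under control replicate 3. In log2 fold change this was 0.67 (standard error 0.29, 95% interval 0.03 to 1.30), with an unadjusted p of 0.0406 and an adjusted p of 0.362 in edgeR. Trib3 (ENSMUSG00000032715, chromosome 2 from 152337422 to 152344032, minus strand), which encodes a pseudokinase that restrains ATF4, had 73, 64 and 72 counts in controls and 120, 115 and 107 in Ni libraries. As CPM these were 3.99, 4.03 and 4.32 in controls and 6.51, 6.62 and 5.91 in Ni libraries, with every Ni library above every control. A log2 fold change of 0.63 resulted (standard error 0.19, 95% interval 0.21 to 1.04), with an unadjusted p of 0.00727 and an adjusted p of 0.293 in edgeR. Without control replicate 3 it was 0.67 (edgeR adjusted p = 0.0567).

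Levels between genes were compared per length, on the FPKM the authors deposited (counts scaled to gene length and library size). In controls the order was Atf4 (63.0 ± 2.08 FPKM), Shmt2 (20.0 ± 0.588), Asns (13.1 ± 0.812), Psat1 (7.95 ± 0.404), Phgdh (7.08 ± 0.604), Mthfd2 (6.33 ± 0.475), Psph (3.26 ± 0.376), Trib3 (1.92 ± 0.0806), Chac1 (1.38 ± 0.302) and Aldh1l2 (0.892 ± 0.205), each as mean FPKM ± SD with n = 3. Neighbours in this order did not overlap between libraries, except Psat1 with Phgdh and Phgdh with Mthfd2. Aldh1l2 was thus the lowest of the 10 in controls. In Ni libraries its mean reached 2.58 ± 0.512 FPKM (SD, n = 3), above Chac1 at 2.20 ± 0.511 and below Trib3 at 2.97 ± 0.173. Aldh1l2 overlapped with both between Ni libraries, and in Ni replicate 3 it was above Trib3, at 3.12 against 2.77 FPKM. Phgdh, at 11.0 ± 0.130 FPKM in Ni libraries, stood above Psat1 at 9.61 ± 0.650, the reverse of their order in controls.

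Folate enzymes work in parallel in mitochondria and in the cytosol, where SHMT1, MTHFD1 and ALDH1L1 do the corresponding steps. Aldh1l1, the cytosolic relative of Aldh1l2, had 5.06, 4.94 and 5.49 FPKM in controls and 4.59, 5.06 and 4.48 FPKM in Ni libraries, and thus a log2 fold change of -0.14 (standard error 0.11, 95% interval -0.38 to 0.11). It was more abundant per length than Aldh1l2 in every library. Shmt1 had 4.33, 4.59 and 3.34 FPKM in controls and 2.98, 3.39 and 3.33 FPKM in Ni libraries, and its log2 fold change was -0.34 (standard error 0.15, unadjusted p = 0.0518, edgeR adjusted p = 0.374). Control replicate 3 lay among the Ni libraries for this gene, and without it Shmt1 was at -0.46 (standard error 0.14, edgeR adjusted p = 0.0474). Mthfd1 was at 0.04 (standard error 0.14) and Mthfd2l, a mitochondrial relative of Mthfd2, at 0.09 (standard error 0.17) on the log2 fold change scale.

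Mthfd1l, whose enzyme releases formate from the same 10-formyltetrahydrofolate, the other fate of that unit in mitochondria, had 6.01, 6.30 and 9.35 FPKM in controls and 11.5, 9.31 and 10.3 FPKM in Ni libraries. Control replicate 3 was again the highest control, just above Ni replicate 2. For Mthfd1l the log2 fold change was 0.52 (standard error 0.17), with an unadjusted p of 0.0129 and an adjusted p of 0.308 in edgeR, which became 0.00117 without control replicate 3. Ratios of a mitochondrial to a related enzyme within a library were compared for 3 pairs. The log2 ratio of Mthfd1l to Mthfd1 was 0.20 ± 0.11 (SD, n = 3) in controls and 0.69 ± 0.05 (SD, n = 3) in Ni libraries, with no overlap (exact two-sided permutation test, p = 0.1, adjusted over the 3 pairs 0.3). That of Shmt2 to Shmt1 was 2.30 ± 0.27 and 2.72 ± 0.18 (p = 0.2, adjusted 0.3, same exact test), and that of Mthfd2 to Mthfd2l was 1.99 ± 0.33 and 2.02 ± 0.28 (p = 0.9, adjusted 0.9, same exact test).

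**Figure D3:**
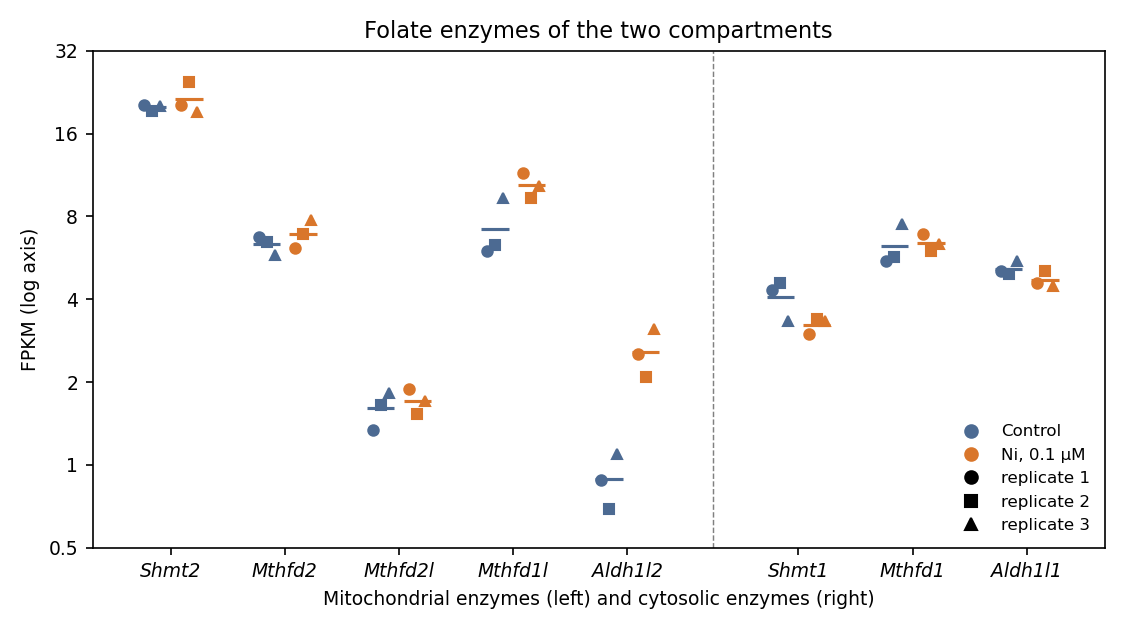
FPKM on a log axis of 5 mitochondrial folate enzymes (left of the dashed line) and 3 cytosolic ones (right), with controls in blue, Ni libraries in orange, a marker shape for each replicate number and a bar at the group mean. Aldh1l2 lies lowest in controls at 0.892 FPKM and at 2.58 FPKM in Ni libraries, while Aldh1l1 overlaps between the groups.

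Of 41 other genes of serine, glycine and folate metabolism, 35 could be tested, and their median log2 fold change was 0.03. At an unadjusted p under 0.05, where 7.59% of all genes were higher and 5.83% lower, 2 were higher, Mthfd1l (0.52) and Sardh (0.50), which encodes sarcosine dehydrogenase. The 2 lower were Mtr (-0.50), which encodes methionine synthase, and Ppat (-0.29), which encodes the first enzyme of purine synthesis. Control replicate 3 stood with the Ni libraries in Mtr, at 76.3 CPM against 116 and 117 in the other controls and 66.4 to 77.8 in Ni libraries. It did so in Sardh as well, at 27.4 CPM against 15.5 and 17.5 in the other controls. For Ppat the 3 Ni libraries all lay below the 3 controls, where 6.71% of all genes did. At an unadjusted p under 0.05, 6 of 36 tested were higher and 3 lower without control replicate 3, where 15.2% of all genes were higher. At an adjusted p under 0.05 in edgeR the counts were then 4 and 2, beside 8.69% and 6.49% of all genes. The edgeR adjusted p was then 0.00125 for Sardh, 0.000602 for Mtr and 0.364 for Ppat.

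Of 35 other known ATF4 target genes, 34 were tested, with a median of 0.13. At an unadjusted p under 0.05, 8 were higher and none lower, where 7.59% of all genes were higher and 5.83% lower. In all 8 the Ni libraries lay above the controls, where 7.97% of all genes did. Without control replicate 3 the counts were 11 higher and 2 lower, beside the same 15.2% of all genes higher. At an adjusted p under 0.05 in edgeR they were then 9 and 1, beside 8.69% and 6.49% of all genes. The largest of the 8 were Adm2 (1.23, standard error 0.43), a secreted peptide, Vldlr (1.15, standard error 0.30), a lipoprotein receptor, and Pycr1 (0.97, standard error 0.19), the last enzyme of proline synthesis. Pycr1 had 7.43, 7.12 and 10.9 CPM in controls and 15.3, 15.0 and 19.3 CPM in Ni libraries, with an unadjusted p of 0.000544 and an adjusted p of 0.208 in edgeR. Its adjusted p was 0.000713 in edgeR without control replicate 3 and 0.00330 in DESeq2. Aldh18a1, which encodes the enzyme that begins proline synthesis, had 31.7, 33.1 and 38.5 CPM in controls and 47.1, 49.0 and 42.4 CPM in Ni libraries, which gave a log2 fold change of 0.42 (standard error 0.11, edgeR adjusted p = 0.262, and 0.00767 without control replicate 3). These were the 2 of 7 proline synthesis genes with an unadjusted p under 0.05. Nupr1, a stress-induced chromatin protein, was at 0.53 (standard error 0.16). Without control replicate 3 the edgeR adjusted p was 0.000479 for Nupr1, 0.0230 for Vldlr and 0.0422 for Adm2, and DESeq2 with all libraries gave 0.00168 for Vldlr and none under 0.05 for Nupr1, Adm2 or Aldh18a1.

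The stress factors among the ATF4 targets differed in their values. Atf5, a factor that like ATF4 is translated under eIF2 phosphorylation, had 61.0, 59.6 and 58.5 CPM in controls and 75.4, 76.0 and 74.2 CPM in Ni libraries. Its log2 fold change was 0.33 (standard error 0.09, edgeR adjusted p = 0.250, and 0.0337 without control replicate 3), and both groups were tight. Ddit3, which encodes the pro-apoptotic factor CHOP, had 14.2, 16.4 and 13.1 CPM in controls and 12.8, 16.5 and 12.9 CPM in Ni libraries, with a log2 fold change of -0.05 (standard error 0.16, 95% interval -0.40 to 0.29). Atf3, an early stress factor, was at -0.14 (standard error 0.12, 95% interval -0.41 to 0.12). The symbol Ddit3 is carried by a pair of overlapping gene records, and these are the values of the longer, the shorter being at 0 in all 6 libraries.

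Further lists related to the ATF4 response gave medians near 0. They share no gene with the list of other ATF4 targets, so the counts of targets above leave them out. Which of their genes lie upstream or downstream of ATF4 was not tested. Among 15 genes of the eIF2 kinases, eIF2 and its exchange factor eIF2B the median was 0.02, with 1 higher at an unadjusted p under 0.05, Eif2b5 (0.27), and none lower. Of all genes, 7.59% were higher and 5.83% lower at this p. Of 20 cytosolic aminoacyl-tRNA synthetases 1 was higher, Gars (0.28), which charges tRNA with glycine, with a median of 0.05. The XBP1 and ATF6 branch of the unfolded protein response, chaperones and degradation factors of the endoplasmic reticulum, had a median of -0.09 over 25 genes, with 1 higher, Hsp90b1 (0.29), and 2 lower, Sdf2l1 (-0.39) and Sel1l (-0.34). The largest difference of that list, Derl3 at -1.25 (standard error 0.53), had an unadjusted p of 0.0508 in edgeR and overlapping groups. Leaving out control replicate 3 put Derl3 at -1.68 (standard error 0.22, edgeR adjusted p = 0.000408). Among 12 glutathione genes, related to Chac1 by substrate, the median was 0.02 and 1 was lower, Gsr (-0.40), which encodes glutathione reductase. None of the 6 genes with an unadjusted p under 0.05 passed an adjusted p of 0.05 in edgeR with all libraries. All 6 did without control replicate 3, where 8.69% of all genes were higher and 6.49% lower at this adjusted p. The edgeR adjusted p was then 0.0302 for Eif2b5, 0.0233 for Gars, 0.0490 for Hsp90b1, 0.0177 for Sdf2l1, 0.00198 for Sel1l and 0.00525 for Gsr. At an unadjusted p under 0.05 the XBP1 and ATF6 branch then had 2 higher and 6 lower, beside 15.2% of all genes higher. Its counts at an adjusted p under 0.05 were 2 and 4, beside the same 8.69% and 6.49%.

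**Figure D4:**
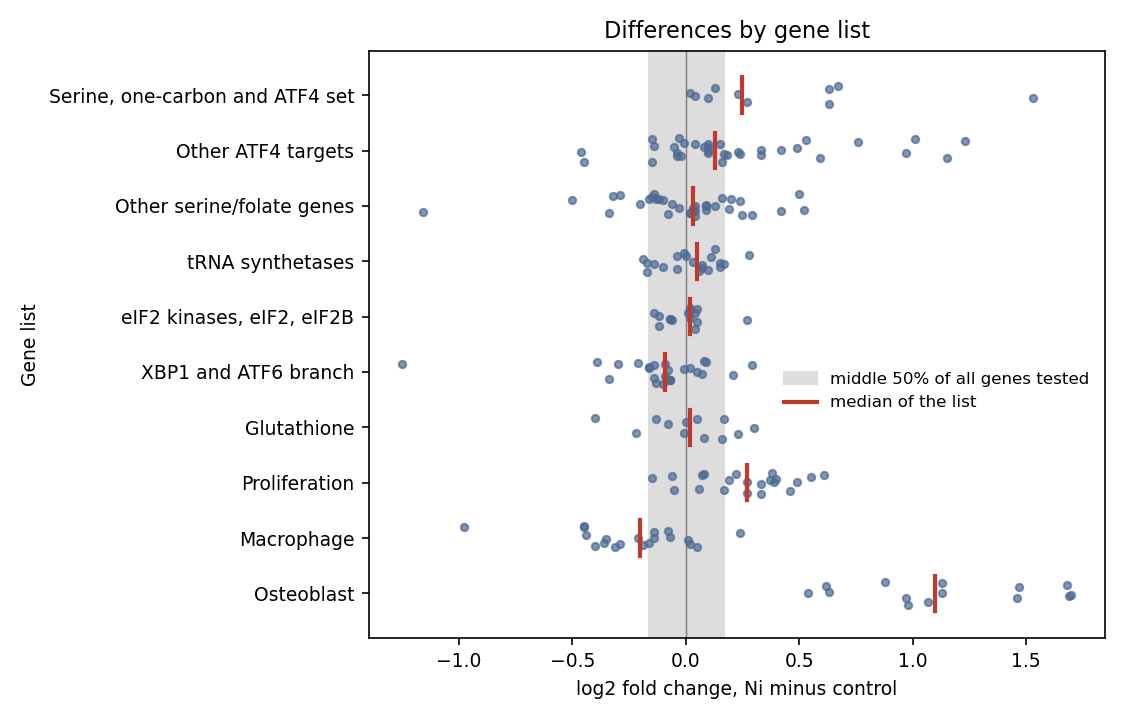
Log2 fold change between Ni and control libraries (horizontal axis) of each tested gene, one point a gene, in 10 lists, with the median of each list in red and the middle 50% of all genes tested, from -0.16 to 0.17, in grey. The median is 0.25 for the 10 genes described here (0.23 without Aldh1l2, picked for its p), 0.13 for other ATF4 targets, -0.20 for macrophage markers and 1.10 for osteoblast markers.

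Markers of cell type and cell state also differed between the groups. At an unadjusted p under 0.05, to which marker counts refer unless stated otherwise, 7.59% of all genes were higher and 5.83% lower. Without control replicate 3, 15.2% of all genes were higher, and the share that was lower is not given here. The 14 osteoblast markers had a median log2 fold change of 1.10 and all 14 were higher at an unadjusted p under 0.05, led by the matrix proteins Ibsp (1.70), Bglap2 (1.69) and Bglap (1.68) and the endopeptidase Phex (1.47). Their summed level was 13917, 13942 and 26365 CPM in controls and 39165, 30020 and 39192 CPM in Ni libraries. The highest control of this sum, as of Aldh1l2, was control replicate 3, and the lowest Ni library of both was Ni replicate 2. The 20 macrophage markers had a median of -0.20, with 6 lower and none higher, among them Aif1 (-0.98), Fcer1g (-0.45), Tyrobp (-0.45) and Itgam (-0.40). Of these named genes only Itgam had all Ni libraries below all controls. So did 3 of the 20, where 6.71% of all genes did. Without control replicate 3 there were 10 lower and 2 higher. At an adjusted p under 0.05 in edgeR these counts were 8 and 1, beside 6.49% and 8.69% of all genes. The 21 proliferation genes had a median of 0.27, with 4 higher, Rrm2 (0.61), Kif20a (0.55), Birc5 (0.46) and Aurka (0.37), and 9 without control replicate 3. Their sum ranged from 514 to 727 CPM in controls and from 674 to 806 CPM in Ni libraries. The part of these cell types and of proliferation in the values of the 10 genes was not tested.

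The other marker lists were smaller or near absent. Of 13 stromal markers 4 were higher and 1 lower, with a median of 0.25, and without control replicate 3 the counts were 8 and 2. The higher included the matrix proteoglycans Lum (0.95) and Dcn (0.80), the lower was the chemokine Cxcl12 (-0.47), and the sum was 4118 to 4868 CPM in controls and 4572 to 4763 CPM in Ni libraries. Of 8 osteoclast markers 4 were tested and 2 were lower, Acp5 (-0.90) and Mmp9 (-0.83), with a sum of 661 to 1320 CPM in controls, lowest in control replicate 3, and 614 to 687 CPM in Ni libraries. The other 2 tested had positive values, Ctsk at 0.62 (standard error 0.31) and Atp6v0d2 at 0.24 (standard error 0.50). The osteoclast counts without control replicate 3 were 1 higher, Ctsk (1.08), and 1 lower, Acp5 (-1.23), with a median of 0.10. Adipocyte markers, 6 of 8 tested, had a median of 0.14 and a sum of 842 to 1175 CPM in controls and 818 to 938 CPM in Ni libraries, with 1 lower, Lpl (-0.49), and none higher. With control replicate 3 left out, 8 adipocyte markers were tested, 4 were higher, among them Plin1 (3.66) and Fabp4 (0.74), 1 was lower, and the median was 0.47. The 7 endothelial markers summed to 47.0 to 75.9 CPM in controls and 44.5 to 48.4 CPM in Ni libraries, with 1 lower, Pecam1 (-0.65). Of 11 neutrophil and erythroid markers 2 were tested, and S100a9, Ngp, Ltf, Hba-a1 and Hbb-bs were at 0 in all 6 libraries, with a sum of 1.65 to 3.32 CPM in controls and 2.06 to 2.41 CPM in Ni libraries.

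The genes whose log2 CPM over the 6 libraries was most like the mean of the 10 genes were Tmem151a (Pearson's r = 0.994), Wnt10b (0.989), Fgd1 (0.988), Ano1 (0.985) and Jmy (0.984). Those most like Aldh1l2 alone were Tmem151a (r = 0.995), Bcan (0.991), Csnk1e (0.990), Jmy (0.990) and Ano1 (0.989). Tmem151a, Ano1 and Jmy were named in both comparisons. The mean of the 10 includes Aldh1l2, which had the largest log2 fold change, and genes were not scaled, so the comparisons are not separate. The likeness rests on 6 libraries that share their 2 groups, and is a description with no test. Csnk1e shared the order of the libraries with a log2 fold change of 0.14, whereas Bcan was at 1.42.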

How the data were processed

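Bulk RNA-seq was analysed for 6 libraries of mouse BMSCs, 3 Ni and 3 control. The authors deposited raw counts per gene for 54532 genes, and FPKM of the same genes, which equal the counts divided by gene length and a factor per library (largest relative deviation 3.29e-07). The build is GRCm38 according to the submitters' processing notes. Aligner, counter and strand setting are not given in the sources used here. Per library, 16101033 to 18642504 counts were available.

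Genes kept by filterByExpr (14624) were normalized by TMM and tested with the quasi-likelihood test of edgeR 4.0.16 (robust, prior count 0.125) in R 4.3.3, adjusted by Benjamini-Hochberg over all genes. The standard error is the unshrunk coefficient over the root of F. Log2 CPM used a prior count of 2. DESeq2 1.42.0 and limma 3.58.1 on log2(FPKM + 1) and log2(FPKM + 0.1) were alternatives. The fit was tested on simulated data. Exon overlap and shared 50-base stretches were computed from GENCODE M21, whose coordinates equal those of the files for the 10 genes.

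The 10 genes and all lists were chosen with earlier results of these data known. Named from each other list were up to 4 genes with the largest difference at an unadjusted p under 0.05, 8 paralogs and stress factors whatever their values, and the 5 genes most similar in pattern. Derl3, with the largest difference of its list, and a few further markers were also named. Labels gave the groups. Counts of replicates differed beyond sampling noise (chi-square over its degrees of freedom 4.67 to 50.2), so each library counted as 1.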

Additional observations from a re-analysis of the deposited data

How the results depend on the processing

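No partner of Aldh1l2 passed an adjusted p of 0.05 in edgeR (4 at an unadjusted p under 0.05). The count was 1, Phgdh in each case, with no filter on low counts, with DESeq2's Wald test and with the replicate block, and from 0 to 1 with each library left out in turn, 1 without control replicate 3. Over all genes these settings called 1027, 257, 315 and 2283, in the same order, against 0. The adjusted p of Phgdh ranged from 0.000492 to 0.749 over 16 alternatives. At an unadjusted p under 0.05 the count of partners, 4 of 9, ranged from 2 to 4 with each library left out, and was 2 without control replicate 2 and 2 without Ni replicate 3. The number of the 10 genes with no overlap, 4, ranged from 4 to 6, and their median, 0.25, from 0.19 to 0.31. Both include Aldh1l2, which was picked for its p. Over the 9 partners with all libraries the count was 3 and the median 0.23. Counts above 4 arose only with a library left out, where fewer libraries have to lie apart. The share of all genes with no overlap was not worked out for these settings. Asns ranged from -0.04 to 0.11 and Shmt2 from -0.02 to 0.17 with each library left out, so that their direction depended on the library left out. Aldh1l2 ranged from 0.92, on log2(FPKM + 1), which compresses low genes, to 1.71. Removing the gene-length trend, an alternative chosen after seeing the data, left these counts as they were. Deviations from the group means correlated at 0.01, 0.256 and 0.138 between libraries of the same number. Libraries of different numbers were not compared in this way, so these values do not settle whether replicates were paired. The replicate block changed the count by Phgdh alone (log2 fold change 0.64, adjusted p = 0.0328). With 29 to 80 counts a library, Chac1 was the least precisely measured of the 10.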
